A study of Brachypodium distachyon with 8 samples.

Results

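Among 14922 Brachypodium distachyon genes with a mean level of at least 1 FPKM, 78 genes (0.523%) were higher in the libraries labelled MTL-OX than in the libraries labelled WT and did not pass the limits set for a response to methyl jasmonate (MeJA). These genotype labels go against the level of the overexpressed transcript, as described below. FPKM is the number of fragments sequenced for a gene, scaled to the length of its transcript and to the depth of the library. A gene was taken when the mean of the 4 libraries labelled MTL-OX was at least 2 times the mean of the 4 libraries labelled WT and the lowest of those labelled MTL-OX lay above the highest of those labelled WT. Genes whose MeJA and mock pairs differed at least 2-fold in mean without overlap, within either labelled genotype, were left out. The first condition alone took 97 genes, 0.65% of the genes tested, and the MeJA condition removed 19 of them. Because the genes were chosen by these measured FPKM, their differences between genotypes are a description and carry no test.

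Jasmonates are lipid-derived hormones through which plants adjust defence and growth. In the absence of hormone, JAZ repressor proteins hold back transcription factors, and the adaptor NINJA links JAZ proteins to the co-repressor TOPLESS. The hormone leads to the degradation of JAZ proteins and so frees the transcription factors. LITTLE NINJA (LNJ) is a microProtein, a small protein with an interaction domain related to that of NINJA, and the study overexpressed it in Brachypodium, a small temperate grass used as a model for cereals.

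Leaf RNA was sequenced from 4 groups with 2 libraries each, numbered 1 to 8. By label, these were MTL-OX plants sprayed with MeJA (7 and 8) and MTL-OX plants given a mock spray (5 and 6). The others were, also by label, WT plants sprayed with MeJA (3 and 4) and WT plants given a mock spray (1 and 2). MTL-OX is the label given to the overexpressor that the study calls BdLNJ-OX, a transgenic line carrying the LNJ coding sequence in a binary overexpression vector. Each library was made from leaves pooled over several plants, and the study describes the pairs as biological replicates. The names on the deposited tables give the opposite genotype to the labels for all 8 libraries.

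The LNJ transcript (BRADI1G69970, chromosome 1, 68443871-68444179) went against the genotype labels. It was listed at 0 and 0.834 FPKM in the labelled MTL-OX MeJA libraries 7 and 8 and at 0 and 0 in the labelled MTL-OX mock libraries 5 and 6. The libraries labelled WT held 596.9, 580.8, 689.2 and 761.8 FPKM, for MeJA 3, MeJA 4, mock 1 and mock 2. The single nonzero value in the libraries labelled MTL-OX stood for 1 fragment. The LNJ values went with the names on the deposited tables, and the 78 genes were lower in the libraries where LNJ was high. Groups below are called by their labels. Read by LNJ level, as by the names on the tables, the 78 genes are lower in the LNJ overexpressor. Each genotype difference given here then changes its sign, and higher and lower shares change places.

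The libraries implied between 13452995 and 15821699 fragments each. Their median-ratio scaling factors, which compare each library with the typical level of all genes, ran from 0.841 in labelled MTL-OX mock 5 to 1.09 in labelled MTL-OX MeJA 8. The deposited FPKM were used as they stand. On that scale 78 genes were higher and 365 were lower by the mirrored rule, so that 17.6% of these genes were higher and 82.4% lower by label. After scaling by the factors, 126 were higher (42.4%) and 171 were lower (57.6%), and 74 of the 78 were among the 126. The tables pair none of the 78 identifiers with a gene name, and none of them could be matched to the reference table used here. No function is therefore given for any of them, and leaf markers could not be checked.

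The 78 genes were mostly weakly expressed. Their mean in the libraries labelled MTL-OX had a median of 5.22 FPKM (1.63 to 431.6), against a median of 1.79 FPKM (0.0992 to 157.4) in the libraries labelled WT. In the libraries labelled MTL-OX, 38 genes averaged below 5 FPKM, 22 between 5 and 20, 12 between 20 and 100 and 6 at least 100. A mean below 1 FPKM in the libraries labelled WT was found for 28 genes, which passed the minimum level only through the libraries labelled MTL-OX. Over all 8 libraries the 78 genes had a median level of 3.46 FPKM, and the genes tested had one of 8.23 FPKM. In bulk leaf RNA, fewer cells of a type and less RNA per cell cannot be told apart.

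The ratio of the 2 means had a median of 2.36 and reached 37.2. It was at least 3 for 24 genes, at least 5 for 11 and at least 10 for 4. On the log2(FPKM + 1) scale the difference, labelled MTL-OX minus labelled WT, had a median of 1.0 (0.56 to 2.72) over the 78 genes and of -0.10 over the genes tested. After scaling these medians were 1.08 and 0.01.

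**Figure D1:**
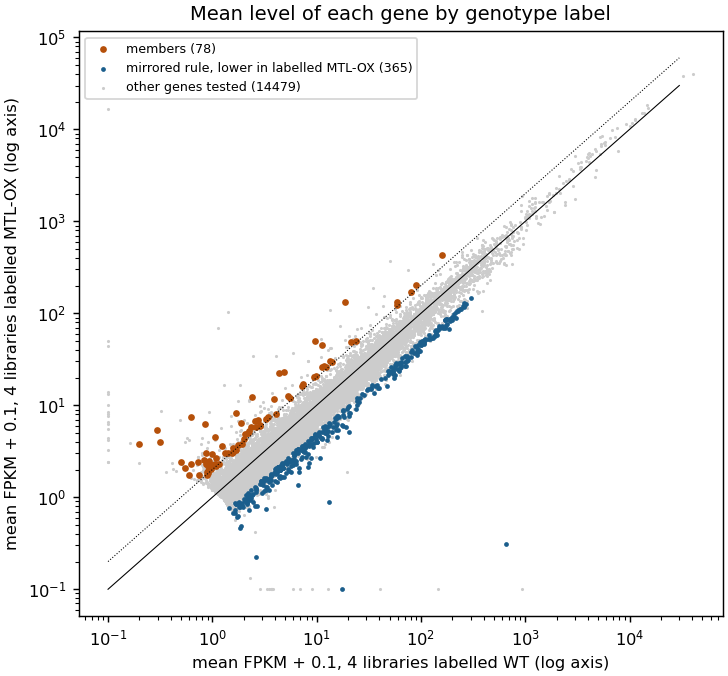
Mean level of each of the 14922 genes tested, with the 4 libraries labelled MTL-OX on the vertical axis and the 4 libraries labelled WT on the horizontal axis, as FPKM + 0.1 on log axes. The 78 genes (orange) lie on or above the dotted line of a 2-fold ratio, the 365 genes of the mirrored rule (blue) lie below the solid line of equal means, and grey points are other genes, some of them past 2-fold with overlapping libraries.

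The threshold cut through a continuous range of ratios. Just inside it, BRADI3G03450 averaged 7.91 ± 1.27 FPKM in the libraries labelled MTL-OX and 3.94 ± 1.63 FPKM in those labelled WT (SD, n = 4 each), a ratio of 2.01. BRADI3G06402 and BRADI2G47790 followed, both at 2.02. Just outside it, BRADI5G04560 averaged 11.4 ± 1.83 FPKM in the libraries labelled MTL-OX and 5.72 ± 0.766 FPKM in those labelled WT (SD, n = 4 each), and BRADI1G27440 and BRADI5G23158 had ratios of 1.97 and 1.96. A further 123 genes that met the other conditions had ratios between 1.5 and 2. Of the 180 genes with a ratio of at least 2 and no MeJA response by the rule, 102 had overlapping libraries and were not taken.

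The 4 genes with a ratio of at least 10 reached at most 8.67 FPKM in any library. BRADI1G18370 (chromosome 1, 14755966-14759931) had 4.43, 4.07, 3.44 and 2.82 FPKM in the labelled MTL-OX libraries MeJA 7, MeJA 8, mock 5 and mock 6, against 0, 0.124, 0.161 and 0.112 FPKM in the labelled WT libraries MeJA 3, MeJA 4, mock 1 and mock 2. At least 124 fragments stood behind each value of the libraries labelled MTL-OX and at most 7.34 behind each of those labelled WT. Its groups were far apart, and its ratio of means was the 37.2 given above.

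BRADI2G23797, the longest of the 78 loci at 9488 bp (chromosome 2, 21550056-21559543), had 4.89, 6.01, 4.90 and 5.2 FPKM in the same libraries labelled MTL-OX, against 0.212, 0.137, 0.269 and 0.160 FPKM in those labelled WT. BRADI5G09920 (chromosome 5, 13194540-13201852) had 7.31, 8.67, 6.93 and 6.29 FPKM in the libraries labelled MTL-OX, against 0.631, 0.403, 0.5 and 0.562 FPKM in those labelled WT. Both genes were even in the libraries labelled MTL-OX and less so, for their level, in those labelled WT. Their lowest library labelled MTL-OX was 18.2 and 9.97 times their highest library labelled WT. BRADI1G73935 (chromosome 1, 71280722-71282647) was uneven instead. It had 4.67, 1.59, 8.16 and 0.977 FPKM in the libraries labelled MTL-OX, against 0.0321, 0.199, 0.112 and 0.525 FPKM in those labelled WT. Its coefficient of variation (CV, the SD as a share of the mean) of 85.7% in the libraries labelled MTL-OX was the highest of the 78, and the lowest value there stood 1.86 times above the highest of the libraries labelled WT.

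The largest log2 difference belonged to BRADI1G08357 (chromosome 1, 5907710-5909929). It had 62.5, 122.8, 219.2 and 131.4 FPKM in the labelled MTL-OX libraries MeJA 7, MeJA 8, mock 5 and mock 6, against 12.7, 14.2, 30.9 and 17.4 FPKM in the labelled WT libraries MeJA 3, MeJA 4, mock 1 and mock 2. The difference was 2.72 on the log2(FPKM + 1) scale. In both labelled genotypes each MeJA library lay below each mock library, with differences, MeJA minus mock, of -0.95 in the libraries labelled MTL-OX and -0.74 in those labelled WT. The gene thus stayed within the 2-fold limit of the MeJA condition on the deposited values, and after scaling it no longer met the rule.

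Of the other genes with a ratio of at least 5, BRADI1G67830 had 44.4, 87.1, 35.6 and 31.0 FPKM in the libraries labelled MTL-OX, against 5.32, 8.88, 17.1 and 6.57 FPKM in those labelled WT. BRADI1G64920 had 6.12, 3.30, 11.8 and 3.46 FPKM in the libraries labelled MTL-OX, against 0.927, 0.591, 0.441 and 1.05 FPKM in those labelled WT. Neither gene overlapped between labelled genotypes, and each was led by a single library, MeJA 8 for BRADI1G67830 and mock 5 for BRADI1G64920. BRADI2G52295 had 9.84, 7.90, 22.6 and 8.57 FPKM in the libraries labelled MTL-OX, against 1.6, 1.92, 2.42 and 3.23 FPKM in those labelled WT. BRADI1G41115 had 1.45, 4.54, 1.94 and 1.41 FPKM in the libraries labelled MTL-OX, against 0.323, 0.716, 0.405 and 0.169 FPKM in those labelled WT. These were led by mock 5 and by MeJA 8 in the same way.

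BRADI1G28120, the shortest of the loci at 330 bp, had 25.8, 25.6, 27.6 and 10.3 FPKM in the libraries labelled MTL-OX, against 3.50, 6.79, 3.44 and 3.14 FPKM in those labelled WT. Between 14 and 40 fragments stood behind the values of the libraries labelled MTL-OX. BRADI1G01780 had 6.52, 10.7, 7.85 and 7.56 FPKM in the libraries labelled MTL-OX, against 0, 0, 6.36 and 0 FPKM in those labelled WT. Its labelled WT mock 1 library was nearly as high as the lowest library labelled MTL-OX, while the other 3 were listed at 0. The locus overlaps another, as do 5 of the 78 (6.41%, against 4.09% of the genes tested), and reads of overlapping loci can be split between them.

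A group of 6 genes averaged at least 100 FPKM in the libraries labelled MTL-OX, among them BRADI1G08357. The highest was BRADI5G25040 (chromosome 5, 26507860-26508242), with 386.9, 386.1, 605.6 and 347.7 FPKM in the labelled MTL-OX libraries MeJA 7, MeJA 8, mock 5 and mock 6, against 89.3, 165.5, 70.9 and 303.8 FPKM in the labelled WT libraries MeJA 3, MeJA 4, mock 1 and mock 2. Its 2 labelled WT mock libraries differed over 4-fold, and the higher of them came within a factor of 1.14 of the lowest library labelled MTL-OX. BRADI1G74860 had 196.4, 220.5, 244.2 and 158 FPKM in the libraries labelled MTL-OX, against 102.4, 90.9, 100.7 and 67.0 FPKM in those labelled WT. BRADI2G34250 had 134.9, 138.8, 239.5 and 160.5 FPKM in the libraries labelled MTL-OX, against 98.7, 52.6, 111.4 and 56.6 FPKM in those labelled WT.

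BRADI2G23060 had 92.8, 199.6, 151.4 and 80.6 FPKM in the libraries labelled MTL-OX, against 77.1, 57.6, 80.2 and 23.0 FPKM in those labelled WT. Its groups were separated by a factor of 1.01 only. BRADI5G10770 had 110.1, 140.3, 144.8 and 92.5 FPKM in the libraries labelled MTL-OX, against 54.1, 62.4, 60.4 and 60.8 FPKM in those labelled WT. The ratios of means of these 5 abundant genes lay between 2.05 and 2.74, well below the 7.13 of BRADI1G08357.

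**Figure D2:**
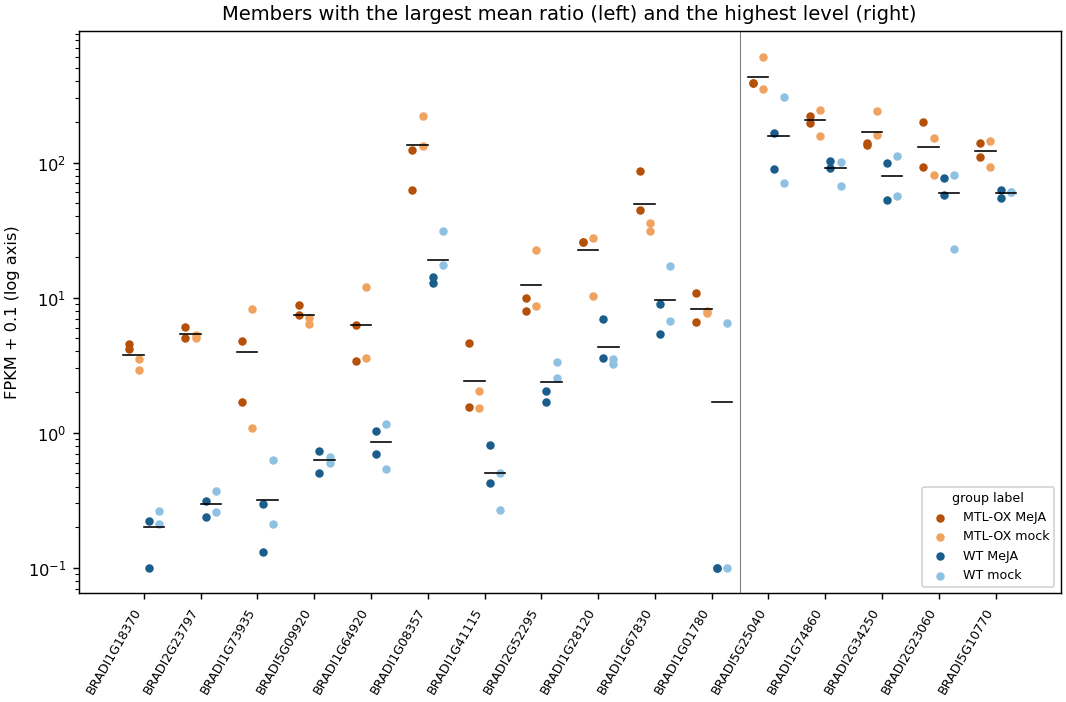
FPKM + 0.1 on a log axis for the 11 genes with a ratio of means of at least 5 (left of the line, in falling order) and the other 5 genes averaging at least 100 FPKM in the libraries labelled MTL-OX (right). Points are single libraries, from left to right MTL-OX MeJA, MTL-OX mock, WT MeJA and WT mock by label, and bars are means of 4 libraries; the separation on the left runs from 18.2-fold in BRADI2G23797 to almost none in BRADI1G01780.

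The separation between labelled genotypes was narrow for most of the 78. The lowest library labelled MTL-OX was a median of 1.34 times the highest library labelled WT. For 12 genes this factor was below 1.1, and for 8 it was at least 2. Besides genes already described, the 8 held BRADI4G18800, with 43.7, 51.3, 52.7 and 31.4 FPKM in the libraries labelled MTL-OX, against 9.44, 11.8, 10.6 and 12.5 FPKM in those labelled WT. They also held BRADI1G05450, with 20.3, 19.4, 32.1 and 19.5 FPKM in the libraries labelled MTL-OX, against 3.14, 4.50, 3.25 and 8.02 FPKM in those labelled WT. At least 10 fragments stood behind every library labelled MTL-OX for 74 genes, and fewer in at least 1 library for BRADI1G22000, BRADI1G25330, BRADI1G47480 and BRADI1G51930. The confidence intervals listed with the FPKM, which cover counting and assignment error within a library, stayed apart between the labelled genotypes for 22 genes (28.2%), all higher in the libraries labelled MTL-OX, as they did for 0.563% of the genes tested. The rule used the same contrast, and nothing is read from that gap.

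Libraries of 1 labelled genotype were spread more widely for the 78 genes than for the genes tested. The median CV was 28.4% in the libraries labelled MTL-OX and 28.2% in those labelled WT, while over the genes tested it was 21.1% in the libraries labelled MTL-OX and 13.3% in those labelled WT. A CV of at most 15% in the libraries labelled MTL-OX was found for 9 of the 78 and for 28.9% of the genes tested. The evenest was BRADI2G36897, with 1.91, 2.17, 2.36 and 2.01 FPKM in the libraries labelled MTL-OX, against 0.431, 1.24, 1.06 and 1.22 FPKM in those labelled WT. Among the better expressed of these 9, BRADI3G29110 had 13.0, 13.8, 12.8 and 10.8 FPKM in the libraries labelled MTL-OX, against 5.45, 4.99, 6.67 and 3.95 FPKM in those labelled WT. BRADI5G03290 had 18.6, 14.5, 17.4 and 14.4 FPKM in the libraries labelled MTL-OX, against 5.76, 6.20, 7.70 and 8.96 FPKM in those labelled WT. These CVs are of groups that the selection required to be apart, and they mix the 2 treatments. The part of the lower level of the 78 in this spread was not tested.

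The highest of the 8 libraries was labelled MTL-OX MeJA 8 for 34 genes, mock 5 for 32, MeJA 7 for 7 and mock 6 for 5. Among the genes tested, labelled MTL-OX MeJA 8 was the highest library labelled MTL-OX in 48.5% and mock 5 in 9.97%. For the 78 these shares were 43.6% and 41.0%. After scaling, mock 5 led 57.7% of the 78 and 28.1% of the genes tested. On the deposited values mock 5 stood at least 1.5 times above the next library labelled MTL-OX for 10 of the 78, BRADI2G52295, BRADI1G64920 and BRADI1G05450 among them, and for 1.15% of the genes tested. After scaling it did so for 18 of the 78 and for 2.45% of the genes tested. The 78 were chosen on the values of these same libraries, so nothing is read from the gaps to the genes tested. The lowest library labelled MTL-OX was mock 6 for 43 genes. That share was not counted over the genes tested, and nothing is read from it. The summed level of the 78 genes was 1700, 2024, 2348 and 1494 FPKM in the labelled MTL-OX libraries MeJA 7, MeJA 8, mock 5 and mock 6, against 660.3, 707.1, 735.9 and 790.1 FPKM in the labelled WT libraries MeJA 3, MeJA 4, mock 1 and mock 2. By this sum, which a few abundant genes such as BRADI5G25040 dominate, the 2 labelled MTL-OX mock libraries were the highest and the lowest of their genotype. By the median of the 78 the order differed, with 4.80, 5.70, 5.22 and 4.40 FPKM in the labelled MTL-OX libraries MeJA 7, MeJA 8, mock 5 and mock 6. The part of the scaling factors in this was not tested beyond the scaled values given here.

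Between the labelled genotypes, the difference was larger under MeJA for 57 genes and larger under mock for 21. Its median was 1.11 under MeJA (-0.01 over the genes tested) and 0.86 under mock (-0.19 over the genes tested) on the log2(FPKM + 1) scale. After scaling, the medians of the 78 were 1.12 under MeJA and 1.04 under mock, closer together than on the deposited values. Over the genes tested, the difference under MeJA minus that under mock had a median of 0.15 (-0.02 after scaling). The genes tested thus leaned the same way on the deposited values. Their share with a larger difference under MeJA was not counted, and nothing is read from the counts of 57 and 21.

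The MeJA differences of the 78 genes were small, as the selection required. In the libraries labelled MTL-OX, the difference MeJA minus mock had a median of 0.11 (-0.95 to 0.89), and 53 of the 78 were above 0 (67.9%, against 74.3% of the genes tested). In the libraries labelled WT, it had a median of -0.12 (-1.44 to 0.62), and 23 were above 0 (29.5%, against 55.2% of the genes tested). The medians over the genes tested were 0.18 in the libraries labelled MTL-OX and 0.03 in those labelled WT. After scaling, 33 genes were above 0 in the libraries labelled MTL-OX and 21 in those labelled WT, with medians of -0.08 and -0.14. Of the genes tested, 48.5% and 49.1% were then above 0, with medians of -0.01 and -0.004. The positive median in the libraries labelled MTL-OX thus turned negative for the 78 and for the genes tested. In the libraries labelled MTL-OX both MeJA libraries lay above both mock libraries for 23 genes (29.5%, against 40.4% of the genes tested) and below them for 8 (10.3%, against 6.51%). In the libraries labelled WT they lay above for 8 genes (10.3%, against 23.9%) and below for 15 (19.2%, against 16.1%).

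**Figure D3:**
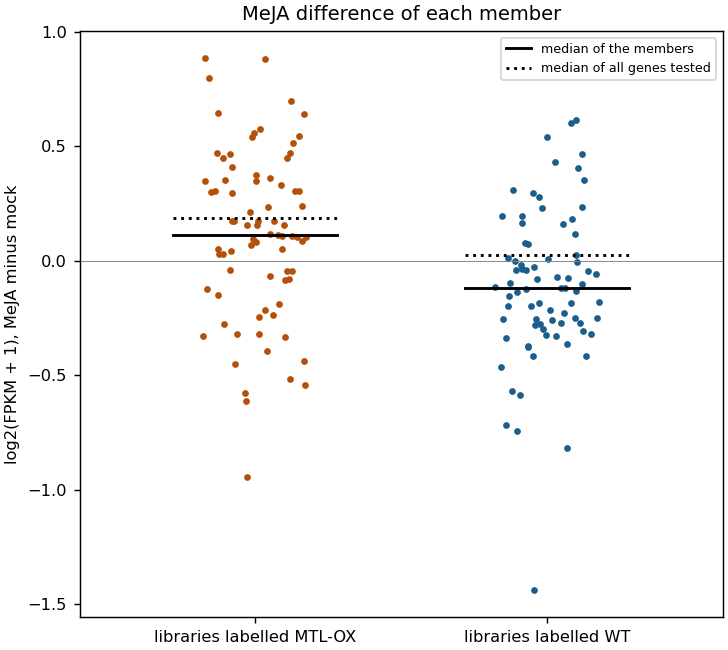
Difference in log2(FPKM + 1), MeJA minus mock, of each of the 78 genes in the libraries labelled MTL-OX (left) and WT (right). Each point is 1 gene from the means of 2 MeJA and 2 mock libraries and its sideways position has no meaning; the median of the 78 (solid) is 0.11 on the left and -0.12 on the right, and that of the genes tested (dotted) is 0.18 and 0.03.

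Tests over all 14922 genes with limma, adjusted by the Benjamini-Hochberg method and called at an adjusted p of at most 0.05 and a 2-fold difference on the log2(FPKM + 1) scale, gave the background for these counts. The genotype effect over both treatments called 45 genes higher (0.302%) and 120 lower in the libraries labelled MTL-OX. After scaling it called 36 higher and 16 lower, so the larger side changed. Of the 78 genes 28 were called higher, a count that the selection on the same contrast produces and from which nothing is read. With 1 library left out the genotype effect called 11 to 705 genes, the most without labelled MTL-OX mock 6, and 4 to 45 of the 78. The MeJA effect over both genotypes called 28 genes (0.188%) and none of the 78, and nothing is read from this count either, since genes with 2-fold MeJA differences had been left out on the same values. At an unadjusted limma p below 0.05 were 7 of the 78 (8.97%) and 2468 of the genes tested (16.5%). Limma's voom on implied fragments also called none, with 8 of the 78 (10.3%) and 2511 of the genes tested (16.8%) at an unadjusted p below 0.05.

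The smallest p of the MeJA effect among the 78 belonged to BRADI1G72590, with 38.1 and 37.8 FPKM in labelled MTL-OX MeJA 7 and 8, against 24.8 and 21.4 FPKM in labelled MTL-OX mock 5 and 6. It had 15.3 and 17.1 FPKM in labelled WT MeJA 3 and 4, against 8.51 and 12.6 FPKM in labelled WT mock 1 and 2. Each MeJA library lay above each mock library of its genotype. The effect of 0.65 (SE 0.13) on the log2 scale did not pass the test (limma, adjusted p = 0.0929). BRADI1G00900 came next by p, with 31.9 and 34.9 FPKM in labelled MTL-OX MeJA 7 and 8, against 21.0 and 16.8 FPKM in labelled MTL-OX mock 5 and 6. Its labelled WT values were 12.9 and 11.8 FPKM for MeJA 3 and 4, against 9.11 and 10.9 FPKM for mock 1 and 2, and its effect was 0.54 (SE 0.14, limma adjusted p = 0.162). By size the largest MeJA effect was that of BRADI1G08357, at -0.84 (SE 0.27, limma adjusted p = 0.205).

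Whether the MeJA difference itself differed between labelled genotypes was asked with the interaction term, which called 2 genes (0.0134%) and none of the 78. At an unadjusted limma p below 0.05 were 4 of the 78 (5.13%) and 946 of the genes tested (6.34%), a share of the 78 near the background. Voom called none, with 4 of the 78 and 921 of the genes tested (6.17%) at an unadjusted p below 0.05. The smallest p belonged to BRADI2G32940, with 5.61 and 7.17 FPKM in labelled MTL-OX MeJA 7 and 8, against 4.57 and 5.37 FPKM in labelled MTL-OX mock 5 and 6. Its labelled WT values were 1.38 and 1.79 FPKM for MeJA 3 and 4, against 2.64 and 3.11 FPKM for mock 1 and 2. The values went opposite ways in the 2 labelled genotypes, by an interaction of 0.89 (SE 0.25) that did not pass the test (limma, adjusted p = 0.730).

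Another of the 4 genes was BRADI1G47017. It had 70.8 and 56.8 FPKM in labelled MTL-OX MeJA 7 and 8, against 39.0 and 29.6 FPKM in mock 5 and 6. Its labelled WT values were 13.0 and 25.7 FPKM for MeJA 3 and 4, against 22.6 and 24.0 FPKM for mock 1 and 2. The labelled WT pairs overlapped, and no direction is read from them. BRADI1G53550 and BRADI2G55010 completed the 4, with interactions of 1.05 (SE 0.35) and 0.86 (SE 0.29), both at a limma adjusted p of 0.760. The selection limited MeJA differences within each genotype and so also limited what this test could find.

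The genes lay on all 5 chromosomes, 29 on chromosome 1, 18 on chromosome 2, 11 on chromosome 3, 12 on chromosome 4 and 8 on chromosome 5. Chromosome 1 held 37.2% of the 78 and 30.4% of the genes tested, and chromosome 3 held 14.1% of the 78 and 22.7% of the genes tested. Their loci were shorter, with a median of 2043 bp against 3315.5 bp for the genes tested. In 4 of 73 pairs of successive genes on a chromosome the gap was below 100 kb. The closest pair was BRADI1G18370, the gene with the highest ratio, and BRADI1G18380, with a gap of 1951 bp and no tested gene between them. BRADI1G18380 had 2.15, 2.63, 3.19 and 1.89 FPKM in the libraries labelled MTL-OX, against 0.369, 0.793, 1.02 and 0.774 FPKM in those labelled WT, a ratio of 3.33. BRADI5G10737 and the abundant BRADI5G10770 were 20185 bp apart with 2 tested genes between them. BRADI5G10737 had 4.22, 3.65, 2.62 and 4.41 FPKM in the libraries labelled MTL-OX, against 1.42, 2.07, 1.71 and 2.07 FPKM in those labelled WT. The other pairs were BRADI2G01290 with BRADI2G01380, 60712 bp apart, and BRADI3G33150 with BRADI3G33217, 79649 bp apart.

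The study gives identifiers for a JAZ gene and a NINJA gene, and neither was among the genes selected. In its yeast tests LNJ bound NINJA and not this JAZ protein. Other JAZ genes were not examined here. The JAZ gene BRADI1G21490, encoding a jasmonate repressor, had 49.4, 57.2, 43.4 and 36.6 FPKM in the labelled MTL-OX libraries MeJA 7, MeJA 8, mock 5 and mock 6, against 26.1, 30.4, 25.2 and 27.0 FPKM in the labelled WT libraries MeJA 3, MeJA 4, mock 1 and mock 2. The groups did not overlap, and the difference of 0.74 (SE 0.12) on the log2 scale had a limma adjusted p of 0.0392 but lay below the 2-fold limit. NINJA (BRADI2G11790) had 19.5, 26.7, 16.6 and 21.9 FPKM in the libraries labelled MTL-OX, against 20.6, 20.6, 19.0 and 17.7 FPKM in those labelled WT. These overlapped, with a difference of 0.10 (SE 0.13, limma adjusted p = 0.671).

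Which genes met the rule depended on single libraries. With 1 library left out at a time, between 67 and 143 genes met it, and between 56 and 67 of the 78 were among them. Leaving out labelled MTL-OX mock 6 gave 143 genes and leaving out labelled WT mock 2 gave 129. With 1 library in a group, the MeJA condition excludes genes more readily, since a single value cannot overlap as a pair can. Leaving out a library cannot make groups that were apart overlap, so these lists do not test the separation. On all 8 lists stood 19 of the 78, which also met the rule after scaling. The 19 included BRADI2G23797, BRADI5G09920, BRADI4G18800, BRADI1G74860, BRADI3G29110, BRADI5G03290, BRADI1G72590 and BRADI1G00900, all described above. They also included BRADI2G01380, separated by a factor of 1.01 only, and BRADI1G25330, with few fragments. BRADI1G18370, the gene with the highest ratio, was not among them. The 4 genes that did not meet the rule after scaling were BRADI1G08357, BRADI3G33150, BRADI4G30637 and BRADI5G17610.

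**Figure D4:**
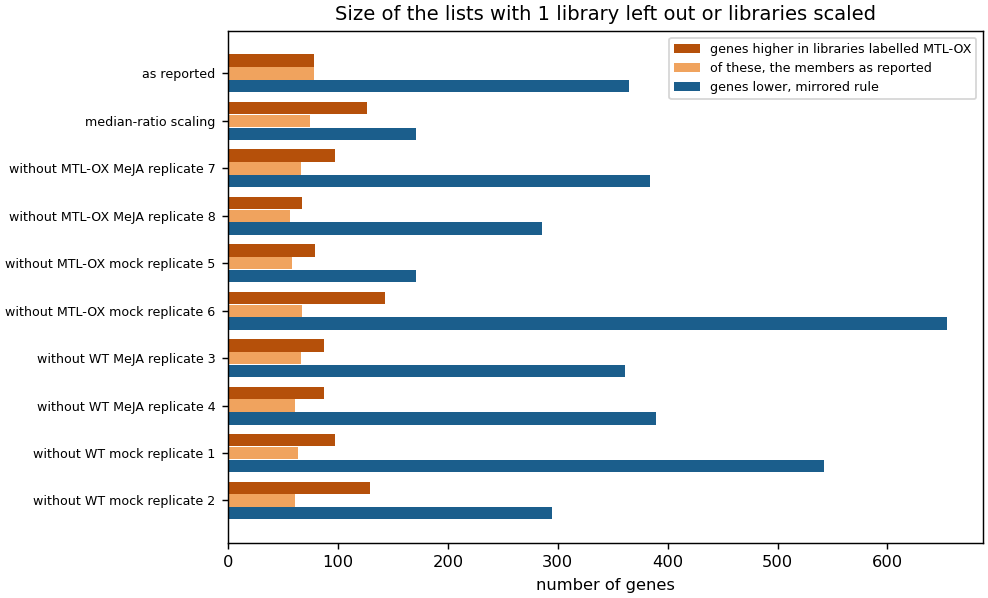
Number of genes meeting the rule as reported, after median-ratio scaling and with each library left out, the group and number of the library being its label. Bars give the genes higher in libraries labelled MTL-OX (dark orange), how many of these are among the 78 (light orange) and the genes lower by the mirrored rule (blue); the first count runs from 67 without MTL-OX MeJA 8 to 143 without MTL-OX mock 6.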

How the data were processed

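Leaf mRNA libraries of 8 samples were prepared by the authors with a TruSeq kit, sequenced on an Illumina instrument, checked with FastQC, aligned with TopHat2 and quantified with Cufflinks. The deposited values are FPKM per gene with confidence bounds, 1 table per library. The genome assembly is not given in the sources used here, and coordinates are those of the tables with the start made 1-based. Values were summed per identifier (27830 identifiers, 0 matched to the RefSeq table), and groups came from the labels. Fragments behind a value were taken as the square of 2 times FPKM over its distance to the upper bound.

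Tests used limma 3.58.1 in R 4.3.3 (lmFit, eBayes with trend) on log2(FPKM + 1) of genes with a mean of at least 1 FPKM, all 8 libraries, with genotype and treatment as factors or 1 mean per group for the interaction, and Benjamini-Hochberg adjustment. Python 3.11.15 was used otherwise. The fits were tested on simulated data. The study's own count-based test needs reads, which FPKM do not hold.

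The members and lists were chosen with earlier results of these data known. The naming rule took LNJ, JAZ and NINJA, the gene with the largest log2 difference (BRADI1G08357), that with the highest level (BRADI5G25040) and the genes around the threshold. All other identifiers were chosen after their values were seen. Lists by product description, cell type markers and promoter motifs could not be applied, since no description or sequence was at hand. Alternatives tried were median-ratio scaling, other pseudocounts, minimum levels, ratios and adjusted p limits, limma's voom on implied fragments, no MeJA condition, a fragment minimum, overlapping loci left out and each library left out.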

Additional observations from a re-analysis of the deposited data

Results flagged for a closer look

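In 10 of the 92 sets of 4 libraries examined (46 named genes, 2 labelled genotypes), 1 library stood apart from the other 3 by a gap larger than the critical value of Dixon's test. Chance gives about 1 in 20 sets of like replicates, but these sets mix MeJA and mock libraries and nearly all of the genes were named after their values were seen, so 10 of 92 is not read against that rate. Labelled MTL-OX mock 5 stood high in 3 of them. It had 605.6 FPKM of BRADI5G25040, with 347.7 to 386.9 FPKM in the other libraries labelled MTL-OX. It had 22.6 FPKM of BRADI2G52295, with 7.90 to 9.84 FPKM in the others, and 32.1 FPKM of BRADI1G05450, with 19.4 to 20.3 FPKM in the others. BRADI1G41115 reached 4.54 FPKM in labelled MTL-OX MeJA 8, with 1.41 to 1.94 FPKM in the others.

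Low libraries were labelled MTL-OX mock 6 for BRADI1G28120, at 10.3 FPKM with 25.6 to 27.6 FPKM in the others, and labelled MTL-OX MeJA 7 for BRADI4G13630, at 13.8 FPKM with 21.5 to 22.8 FPKM in the others. Among the libraries labelled WT, BRADI1G28120 had 6.79 FPKM in MeJA 4, with 3.14 to 3.50 FPKM in the others. BRADI1G01780 had 6.36 FPKM in mock 1 and was listed at 0 in the others. Labelled WT mock 2 had 2.88 FPKM of BRADI2G52877, with 0.199 to 0.416 FPKM in the others, and 3.79 FPKM of BRADI3G33150, with 0.770 to 1.27 FPKM in the others.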

How the results depend on the processing

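The number of genes meeting the rule was 78. It was 126 after median-ratio scaling, 28 with a minimum mean of 5 FPKM, 191 with no minimum, 24 with a ratio of at least 3, and 67 to 143 with 1 library left out. It stayed within 1.5 times of 78 without the MeJA condition (97), with at least 10 fragments (74) and without overlapping loci (73). By label, 17.6% of these genes were higher and 82.4% lower (78 and 365) as deposited, and 42.4% higher and 57.6% lower (126 and 171) after scaling. Read by LNJ level or by the table names, the shares change places. The median log2 difference of 1.0 was 0.92 to 1.11 with 1 library left out. The same 78 genes, chosen on this contrast, were kept, so nothing is read from this range.

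The genotype effect called 165 genes (45 higher and 120 lower), 52 after scaling (36 higher and 16 lower), 31 with no minimum level, 522 by voom, 7 at an adjusted p of at most 0.001, and 11 to 705 with 1 library left out. The MeJA effect called 28, 5 with no minimum level, 46 by voom, 0 at an adjusted p of at most 0.001, and 2 to 31 with 1 library left out. The interaction called 2, 0 with a pseudocount of 0.1, 0 with a minimum mean of 5 FPKM, 7 with no minimum level, 0 by voom, 0 at an adjusted p of at most 0.001, and 0 to 10 with 1 library left out. The causes were not tested. Of 460 values of the 46 named genes under alternatives, 437 moved by less than the SD among libraries of 1 labelled genotype. The other 23, all with a pseudocount of 0.1, moved by more. This SD was pooled over both labelled genotypes and mixes MeJA and mock. Leaving out 1 library cannot move a difference by more than this SD, so nothing is read from those values. None of the 460 values changed sign. The rule had put each library labelled MTL-OX above each labelled WT. A library left out or another pseudocount therefore could not reverse a sign, and nothing is read from this. No paired analysis was possible because the labels number the samples 1 to 8 without repeating a number. Groups of 2 libraries limit all these counts.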
